A study of Homo sapiens with 8 samples.

Results

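The regions described here are stretches of chromatin that lie wholly inside a single protein-coding gene and were tested for a change in macroH2A1 after knockdown of ANP32B. They were chosen by position alone: a region of the authors' deposited table on chromosomes 1 to 22 was taken when its whole interval fell within the span of a RefSeq protein-coding gene. This gave 855 of the 4474 regions tested by the authors, covering 17.6 Mb in 690 host genes. Of the other tested regions, 917 reached across the end of a coding gene, 1274 touched noncoding genes only, 1215 touched no annotated gene and 213 were on chromosome X or Y. For 844 of the 855 regions a single coding gene contained the region. The other 11 lay in several overlapping spans and were assigned to the shortest, among them a region in 15 spans of the alpha protocadherin cluster.

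The study profiled HepG2 cells, a human liver tumour line, by CUT&RUN, in which an antibody guides a nuclease to the chromatin it binds and the released fragments are sequenced. Cells transfected with a control siRNA (siControl) or with an siRNA against ANP32B (siANP32B) were collected after 3 days, and both groups have 2 anti-macroH2A1 libraries. The 4 libraries made with IgG entered no comparison. The labels number the replicates without saying whether they came from separate cultures, so p-values measure only the spread between these libraries, which may be technical. No expression values were used, so neither the depth of knockdown nor the identity of the cells was checked against marker genes, and library depth is unknown.

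MacroH2A1 is a variant of histone H2A that carries a large globular macrodomain after its histone part. It occupies broad domains, often spanning many kilobases of silent or weakly transcribed chromatin, and is known for the inactive X chromosome and for developmental genes that a cell type keeps off. ANP32B belongs to a family of acidic proteins that bind histones, and its relative ANP32E removes the variant H2A.Z from chromatin.

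In most regions inside genes no gene start was found, which the rule itself favours. A region that reached past the outermost start of a gene was counted as crossing a gene end, and starts in the other classes were not counted. In 746 of the 855 regions (87.3%) no annotated start of any gene with a RefSeq promoter entry was found. These entries gave no strand for the hosts of 155 regions, so starts of those hosts may have been missed. Of the other 700 regions, 55 held a start of their own host. Those starts held fewer CG than the usual promoter. A region wholly inside the gene span nearly always leaves out the outermost start of its host. These were thus mostly internal starts, while the promoters they are set beside include outermost ones. Counting the dinucleotide CG on one strand of the 300 bases from 250 before to 50 after the start, the 74 host promoters inside regions had a median of 7 CG, against 15 for the 1000 other promoters of host genes and 21 for all 21156 coding promoters. The share with fewer than 5 CG was 31.1%, 23% and 18.2% in that order. RefSeq sequences, read 5 prime to 3 prime (GRCh38.p14, the assembly hg38), are shown for the starts of hosts named below, with each CG in capitals, as examples of the range of CG numbers at starts within these regions. GRB10 (chr7:50732304-50732603, minus strand, 3 CG) and CACNB2 (chr10:18260472-18260771, plus strand, 8 CG) lay in regions that rose, and C13orf42 (chr13:51111225-51111524, minus strand, 8 CG) in one that fell. EML1 (chr14:99793163-99793462, plus strand, 53 CG), chosen after its values were seen, is the CG-richest host promoter inside a region. Starts of intermediate number also occur, such as the pair inside the higher region of SLC4A8, with 25 and 27 CG.
GRB10: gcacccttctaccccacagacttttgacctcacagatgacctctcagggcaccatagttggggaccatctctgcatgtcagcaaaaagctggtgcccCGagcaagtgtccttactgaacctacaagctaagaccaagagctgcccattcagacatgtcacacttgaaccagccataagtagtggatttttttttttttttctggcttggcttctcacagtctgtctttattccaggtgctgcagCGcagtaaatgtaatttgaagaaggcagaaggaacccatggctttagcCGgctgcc
CACNB2: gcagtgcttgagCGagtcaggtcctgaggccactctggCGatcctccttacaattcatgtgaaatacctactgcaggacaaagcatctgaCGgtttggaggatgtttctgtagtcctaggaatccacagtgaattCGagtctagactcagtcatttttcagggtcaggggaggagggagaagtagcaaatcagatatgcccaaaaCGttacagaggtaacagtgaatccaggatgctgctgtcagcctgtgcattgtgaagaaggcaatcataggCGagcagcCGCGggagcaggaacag
C13orf42: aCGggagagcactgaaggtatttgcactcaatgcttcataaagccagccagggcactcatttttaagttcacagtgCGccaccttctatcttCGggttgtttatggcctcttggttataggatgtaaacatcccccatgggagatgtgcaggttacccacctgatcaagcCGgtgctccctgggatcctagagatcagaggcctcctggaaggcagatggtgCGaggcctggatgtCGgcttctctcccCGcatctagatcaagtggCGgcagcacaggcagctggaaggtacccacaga
EML1: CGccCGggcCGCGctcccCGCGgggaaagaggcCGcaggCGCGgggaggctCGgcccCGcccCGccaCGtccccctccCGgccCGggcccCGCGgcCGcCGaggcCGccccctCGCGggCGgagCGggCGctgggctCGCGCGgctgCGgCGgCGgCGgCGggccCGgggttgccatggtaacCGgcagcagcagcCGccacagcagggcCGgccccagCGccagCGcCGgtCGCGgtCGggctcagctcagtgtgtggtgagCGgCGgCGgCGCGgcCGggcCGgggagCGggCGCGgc
These base counts say nothing of whether a start is used in HepG2 cells.

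By the authors' calls, more regions inside genes were lower than higher after ANP32B knockdown, with a smaller lower share and a larger higher share than in the table as a whole. By the authors' deposited table, 430 of the 855 (50.3%) were lower at a false discovery rate of 0.05, against 58.4% of all tested regions. A further 60 (7.02%) were higher, against 3.82% of all tested regions, which leaves 365 (42.7%) that passed in neither direction. With the threshold at 0.01, the authors' deposited table has 324 lower and 41 higher regions inside genes, where 42.5% and 2.79% of all tested regions pass. Inside genes the log2 fold of the authors' deposited table had a median of -0.47 and an interquartile range of -0.72 to -0.15, beside -0.54 over all tested regions. Folds above 0 were found for 149 regions (17.4%, background 10.8%) and folds below 0 for 706. The scaling between libraries is unknown, and with folds centred on the median of all tested regions the counts were 487 above 0 and 368 below, so the majority direction depends on it. The fold column gives the fold of 1 representative window per region, without values per library, so it has no standard error. These shares describe the set, and it was not tested against the rest.

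Regions outside single genes had fewer gains in each class. Lower shares were 61.9% for regions crossing a gene end, 62.4% for those in noncoding genes and 59.5% for those outside annotated genes, and the higher shares were 4.03%, 2.28% and 3.46%. Changes of at least 2-fold were rare in either direction: 54 regions inside genes were lower by a log2 fold of -1 or beyond (6.32%, background 5.77%) and 11 were higher by at least 1 (1.29%, background 0.782%). Counted by the windows the authors tested within each region, 46.5% of 8617 windows inside genes were listed as down and 7.33% as up, against 52.5% and 3.52% over all regions. The rest were listed as neither. Windows listed as up and as down rarely met within a region, although opposite folds of windows listed as neither cannot be seen. All windows were down in 320 of the 430 lower regions and all were up in 34 of the 60 higher ones, and a region with both kinds of window occurred once in each set, in ELMO1 and in SLC4A8.

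**Figure D1:**
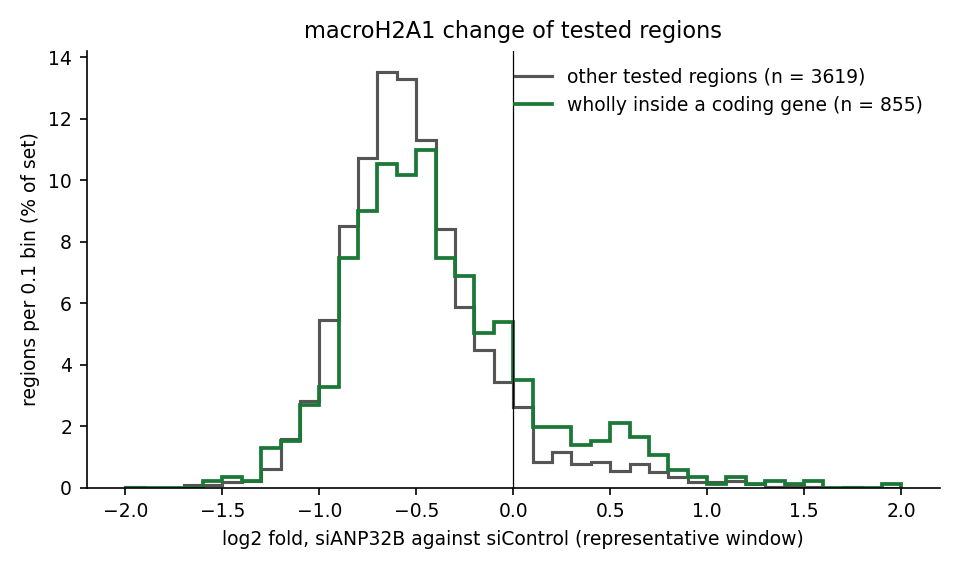
Distribution of the authors' log2 fold (siANP32B against siControl, horizontal axis) for the 855 regions inside 1 coding gene and for the other tested regions, as percent of each set (vertical axis). The regions inside genes have the heavier right side: 17.4% lie above 0, against 9.28% of the other regions. With folds centred on the median of all tested regions, 487 of the 855 would lie above 0.

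Regions of every width showed the higher share of gains. The regions inside genes were 10 to 182 kb wide with a median of 17 kb, and the other regions had a median of 19 kb. In the authors' deposited table, the higher share of regions inside genes was 4.64% at 10 to 15 kb, 6.35% at 15 to 25 kb, 10.7% at 25 to 40 kb and 15.7% at 40 kb or more. The other regions had 0.987%, 2.95%, 4.49% and 5.68% in the same classes. For losses the 2 sets parted most among wide regions: at 40 kb or more 58.8% inside genes and 76.0% of the others were lower, while at 10 to 15 kb the shares were 47.7% and 51.0%.

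The hosts were long genes. Their median span was 142.7 kb, from 12.7 kb to 2173 kb, against 24.5 kb for the 19126 coding genes of the same chromosomes. Containment itself favours long genes, since a region of at least 10 kb cannot fit a shorter one: none of 5328 genes under 10 kb was a host, and 27.4% of the 303 genes over 500 kb were. Per 100 Mb of gene span, however, regions were about as dense in genes of 10 to 50 kb (49.4) as in genes over 500 kb (54.9), with the highest density, 88.0, at 100 to 200 kb. Gains and losses were divided differently over the length classes. The higher share in the authors' deposited table was 1.03% in hosts of 10 to 50 kb and 1.89% at 50 to 100 kb, and then 10.5%, 10.3% and 5.80% at 100 to 200, 200 to 500 and over 500 kb. The lower share was 49.5%, 52.8%, 48.7%, 54.5% and 43.5% in the same order. Across all 855 regions fold and host length had a Spearman correlation of 0.017, a description only, since regions of 1 gene share its length.

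At the extremes of host length both called and uncalled regions were found. Of the 9 regions in the 5 longest hosts 4 were lower, where 58.4% of all tested regions were. DLG2, a synaptic scaffold gene of 2173 kb, had a region at a log2 fold of -0.07 in the authors' deposited table (false discovery rate 0.748), and the regions of EYS, a photoreceptor gene, stood at 0.18 and 0.04. CSMD1, which encodes a large complement-like membrane protein, was at -0.43 (false discovery rate 0.0655). CTNNA3, the alpha-T-catenin gene, had a lower region at -0.80. MACROD2 encodes a macrodomain enzyme that removes ADP-ribose, and 3 of its 4 regions fell, by 0.71, 0.61 and 0.51 on the log2 scale of the authors' deposited table. Among the shortest hosts, VILL, a villin-like actin-binding gene of 19.21 kb, fell by 0.68. The blood group fucosyltransferase gene FUT3 fell by 0.46 and the egg-coat gene ZP2 by 0.45, while PLIN5, a lipid droplet gene, was at -0.23 and L1TD1 at -0.42 without passing. In these short genes the region took most of the span, from 70.2% in FUT3 to 91.5% in L1TD1.

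Regions were spread evenly along their hosts. Strand was known for the hosts of 700 regions, and each was placed on a scale from 0, where it touches the 5 prime end, to 1, where it touches the 3 prime end. Cut into 4 equal steps, this scale held 184, 177, 167 and 172 regions, with a median place of 0.48. The median distance was 60.3 kb to the 5 prime end and 68.2 kb to the 3 prime end, and the median region covered 10.5% of its host. Regions lay within 5 kb of the 5 prime end in 55 cases and of the 3 prime end in 44. The directions differed modestly along the gene: over the same 4 steps, 54.3%, 46.3%, 45.5% and 52.9% were lower in the authors' deposited table and 9.24%, 10.2%, 5.99% and 5.81% were higher. Regions that held a start of their host were lower in 58.2% and higher in 10.9% of cases, against 49.1% and 7.60% of the other stranded regions.

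Noncoding genes and small RNAs lay within some regions. In 120 regions a whole noncoding gene was contained, and 9 held an annotated miRNA hairpin, each in a different host. Of these 9, 5 were lower in the authors' deposited table, a share near the 58.4% of all tested regions, among them those with MIR8082 in ANK2 (-0.74), MIR4799 in ARHGAP10 (-0.97), MIR6088 in ERCC1 (-0.55) and MIR4540 in PAX5 (-0.61). None of the 9 was higher. Regions with a mature miRNA but no hairpin entry inside them were not counted. These lay in CACHD1 (-0.41), CAMK1D (-1.10) and ERBB4 (-1.13), and all were lower.

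Called macroH2A1 domains covered nearly all of these regions in every library. On average, domains took up 95% and 92% of a region's length in the siControl libraries and 94% and 95.6% in the siANP32B libraries, a difference of 1.25 percentage points (exact permutation test, two-sided, p = 0.667, n = 2 per group, for which the smallest possible p is 0.33). The difference was -0.239 points without siControl replicate 2 and -26.3 with 1 common score for domains of all libraries. At least 50% of the length was covered in all 4 libraries for 772 regions (90.3%), and the whole length in all 4 for 533 (62.3%). Complete switches were few: 7 regions reached 50% in both siControl libraries only, 9 in both siANP32B libraries only, and 5 in no library. Domain calls and folds come from the same libraries, so coverage is another view of the same reads and no independent test.

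Coverage followed the direction of the fold. The 430 lower regions were covered to 97.2% and 95.5% in siControl and to 91.3% and 93.6% in siANP32B, a difference of -3.92 points. The 60 higher regions went from 79.9% and 73.1% to 97.2% and 98.3%, a difference of 21.2 points, and the share covered along the whole length was 50% and 45% in siControl against 88.3% and 96.7% in siANP32B. Both contrasts separated the libraries completely and had the smallest exact permutation p that 2 against 2 allow, 0.33. The regions were grouped by calls from these same libraries, so neither the separation nor this p is evidence for the direction. The 365 regions that did not pass also had higher coverage in both siANP32B libraries, 96.6% and 97.5% against 94.9% and 91.1%. This last direction depends on the score that a domain must have: with 1 common score for all libraries, an alternative chosen after seeing the data for these subsets, the difference was -15.6 points. The difference of the lower regions was then -41.6 points, and -2.08 with an equal number of best-scored domains per library, while that of the higher regions was 18.5 and 26.2.

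Regions inside genes had higher mean coverage than all other tested regions pooled in each library, but not than each autosomal class. The gap to the pool was wider in both siANP32B libraries. Regions inside genes exceeded this pool by 2.21 and 2.21 points in siControl and by 4.34 and 4.88 points in siANP32B. The gap differed by 2.40 points between groups (exact permutation p = 0.33, two-sided). The pool includes the 213 regions on chromosome X or Y, whose coverage was not computed apart. In both siControl libraries every autosomal class of the pool was covered more than the regions inside genes. The gap there thus came from these 213 regions. How the gap to autosomal regions alone differed between groups was not computed. Regions crossing a gene end were covered more than those inside genes in each library (96.8% and 94.5% in siControl, 96.3% and 95.8% in siANP32B). So were regions in noncoding genes only. Regions outside annotated genes were covered slightly more in both siControl libraries and less in both siANP32B libraries. High coverage was thus not particular to regions inside genes. Coverage lay above both siControl libraries in both siANP32B libraries for 49 regions (5.73%, background 3.62%), of which 22 were called higher, 3 lower and 24 did not pass. It lay below in 23 regions (2.69%, background 3.02%), of which 19 were called lower.

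**Figure D2:**
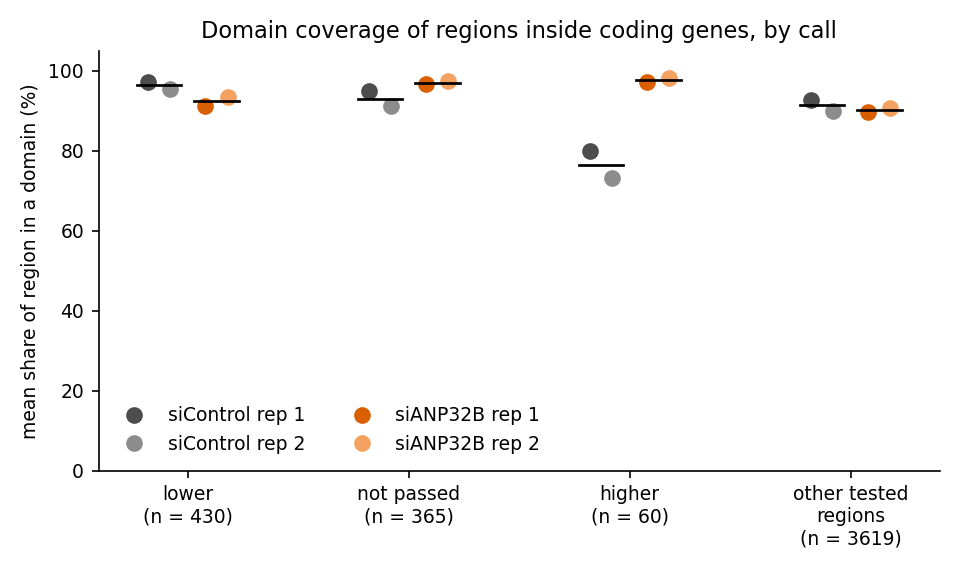
Mean percent of region length in called domains (vertical axis) for regions inside genes that were lower, higher or did not pass and for the other tested regions, 1 point per library. In the 60 higher regions the siControl libraries stand at 79.9% and 73.1% and the siANP32B libraries at 97.2% and 98.3%.

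The domains around the regions were larger than typical and often ran past the gene. The median domain touching a region was 84 and 71 kb in siControl and 98 and 100 kb in siANP32B, while all called domains had medians of 38, 39, 47 and 48 kb. These medians are not alike in kind, since choosing domains that touch regions of at least 10 kb favours long ones. Counted per region with a domain, the domain stayed inside the host gene for 45.1% and 50.9% in siControl and 42.8% and 41.9% in siANP32B. It spanned the whole host for 17.6% and 14.7% in siControl and 24.4% and 21.5% in siANP32B (exact permutation p = 0.33).

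In the domain lists as deposited, whole host genes carried more domain sequence in both siANP32B libraries, while 50.3% of the regions in them were lower. Host coverage was not computed with 1 common score. On average 58.6% and 54.7% of a host gene lay in domains in the siControl libraries, against 61.9% and 62.6% in the siANP32B libraries, a difference of 5.57 points (exact permutation p = 0.33, two-sided), or 3.58 points without siControl replicate 2. Hosts covered along their whole span made up 19.4% and 16.5% in siControl and 25.4% and 23% in siANP32B. Other coding genes of 10 kb or more had 17% and 14.3% of their length covered in siControl and 21.1% and 17.9% in siANP32B. Hosts were chosen for holding a tested region, and such regions lay nearly whole in domains. That choice favours high coverage of hosts over other genes and over their own flanks. Coverage along the hosts was highest before the middle of the gene and lowest at the 3 prime end. The 5 prime end lay in a domain in 54.6% and 51.4% of hosts in siControl and 58% and 60.4% in siANP32B, the 3 prime end in 45%, 39.8%, 47.9% and 45.9%, and the midpoint in 60.4%, 56.3%, 63.6% and 66.3%.

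**Figure D3:**
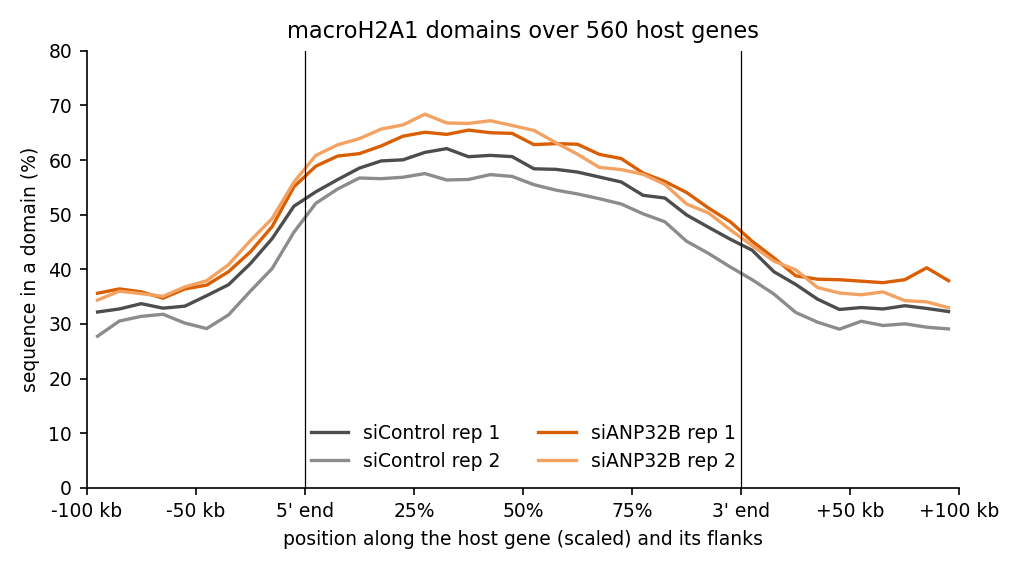
Percent of the 560 stranded host genes whose position lies in a called domain (vertical axis), along the gene scaled from start to end and 100 kb of flank on either side (horizontal axis), 1 line per library. All 4 lines are highest before the middle of the gene and fall toward the 3 prime end, where siControl has 45% and 39.8% and siANP32B 47.9% and 45.9%. Hosts were chosen for holding a tested region, which favours coverage within the gene over the flanks.

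Among lower regions, the 15 with the smallest p-values had log2 folds of -1.55 to -1.19 in the authors' deposited table, and 14 of them were covered along their whole length in both siControl libraries. SRRM3, which encodes a splicing factor for neuronal microexons, had the lowest (-1.55), over a region that takes 50.4% of the gene. The integrin gene ITGA9 followed at -1.50 in the authors' deposited table. The gene of the liver's bile salt exporter, ABCB11, stood at -1.49 in a region 8.32 kb from its 5 prime end.

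Channel, adhesion and enzyme genes followed. TBXAS1, thromboxane synthase, fell by 1.35 (false discovery rate 3.23e-12), so that 39.2% of the siControl level was left by the fold in the authors' deposited table. KCNH7, an ERG-type potassium channel gene, fell by 1.23 (3.99e-12) and FGF14, whose product sets sodium channel behaviour in neurons, by 1.20 (3.31e-11). The focal adhesion gene NEDD9 stood at -1.37, the talin gene TLN2 at -1.30 and PTK2B, a kinase of the same adhesions, at -1.19 in the authors' deposited table. ELFN1, a synaptic adhesion gene, fell by 1.19 over a region of 45.2% of its span, and C13orf42 by 1.21 over 48.7%.

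In the domain lists as deposited, 10 of these 15 regions were covered along their whole length in all 4 libraries. That measure is close to its ceiling and depends on the score a domain must have, as the value of -41.6 points for all lower regions above shows. ZFP1, a zinc finger gene, went from 100% in both siControl libraries to 0% in both siANP32B libraries at a log2 fold of -1.46 in the authors' deposited table. TLN2 was covered to 100% and 90% in siControl and to 80% and 0% in siANP32B, and LINGO2, a neuronal membrane gene whose region sits 989 kb from the start, to 100% and 100% against 45.5% and 100%. Domain loss in both siANP32B libraries was also seen in PADI1, a protein arginine deiminase gene (log2 fold -0.89), CADM2, a synaptic adhesion gene (-0.90), and PLCB4, a phospholipase C gene (-0.47), each listed as lower in the authors' deposited table.

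Among higher regions, the 15 with the smallest p-values had log2 folds of 0.88 to 1.90 in the authors' deposited table, and all 15 were fully covered in both siANP32B libraries but only 4 in both siControl libraries. GRK3, a kinase that desensitises G protein-coupled receptors, had the largest fold of all 4474 regions, 1.90, and its coverage went from 0% in both siControl libraries to 100% in both siANP32B libraries. TSPAN5, a tetraspanin that escorts the protease ADAM10, and MCF2L2, a guanine nucleotide exchange factor gene, both stood at 1.56, or 2.95-fold. OSBPL10, an oxysterol-binding protein gene, was at 1.39 over a region that starts 11.7 kb into the gene.

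GRB10, an imprinted adaptor that restrains insulin signalling, rose by 1.42 in the authors' deposited table, and its region was covered to 85.7% and 0% in siControl and to 100% in both siANP32B libraries. The ubiquitin ligase gene PDZRN3 rose by 1.32 and the transcriptional elongation gene AFF3 by 1.29. TCF7L1, a repressor of Wnt target genes, rose by 1.18 within 2.61 kb of its 5 prime end. RORA, a nuclear receptor gene of circadian and lipid control, rose by 1.01, and 2 further RORA regions at -0.02 and 0.00 in the authors' deposited table did not pass. Regions with no domain in siControl and full coverage in siANP32B were also found in CACNB2, a calcium channel subunit gene (0.81), SPEF2, a sperm flagellum gene (0.77), PDE4DIP, a centrosome and Golgi anchor gene (0.72), and ERO1B, an oxidase of the endoplasmic reticulum (0.65).

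Some hosts held several regions, whose calls were alike in some genes and opposite in a few. Of the 116 hosts with at least 2 regions, 27 had all of them lower, 1 had all higher, 19 had none that passed, 54 had some lower and the rest not passed, 7 had some higher and the rest not passed, and 8 had both directions. These counts are to be read against 50.3% lower and 7.02% higher inside genes. The shares of all tested regions were 58.4% and 3.82%. Whether regions of 1 gene were more alike than these shares give was not tested. The largest numbers were 5 regions each, in KCNQ1, MKLN1 and GSE1. KCNQ1, a cardiac potassium channel gene in an imprinted cluster, had 4 of 5 lower, at -1.30, -1.04, -0.94 and -0.91 in the authors' deposited table, with the last at -0.41. MKLN1, a subunit of a ubiquitin ligase, had 4 of 5 lower (-1.28 to -0.54), MYO3B, a class III myosin gene, 4 of 4 (-0.88 to -0.51), and GSE1 had 2 of 5. ADCY1, a neuronal adenylyl cyclase gene, was the 1 host with every region higher, at 0.67 and 0.60.

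In 8 hosts a region that fell and a region that rose lay in the same gene. TSPAN5 carried the widest spread of any host: the region at 1.56 in the authors' deposited table starts 61.6 kb from the 5 prime end, and one at -0.60 starts 6.61 kb from it. PAPPA, which encodes a protease of insulin-like growth factor binding proteins, fell by 1.06 at 1.21 kb from its start and rose by 0.82 at 176 kb. SLC24A4, a sodium, calcium and potassium exchanger gene, had the reverse order, with 0.88 at 6.42 kb and -0.58 at 147 kb. The other 5 were ADAMTS18, FRMD4B, NDUFAF6, PLD5 and SPATA13. Over the hosts with at least 2 regions the median spread between the lowest and the highest fold was 0.47.

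**Figure D4:**
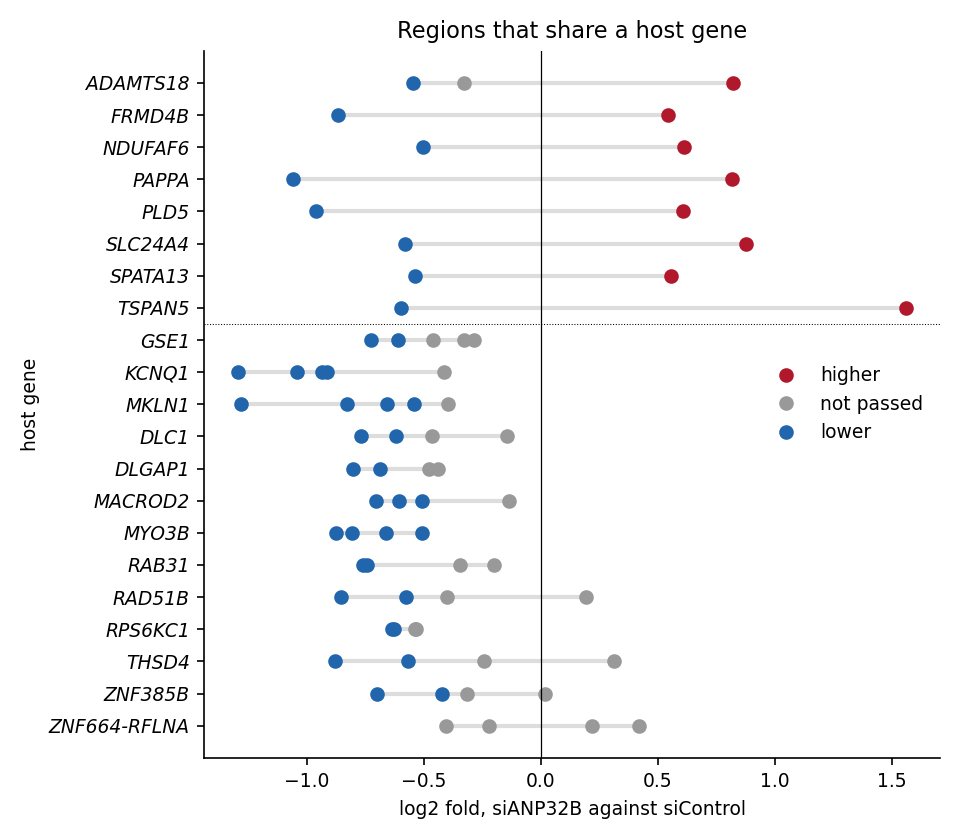
Log2 fold in the authors' deposited table (horizontal axis) of every region of the 8 hosts with both a lower and a higher region, above the dotted line, and of the 13 hosts with at least 4 regions, below it (1 row per gene, 1 point per region). TSPAN5 spans from -0.60 to 1.56, and all 4 regions of MYO3B lie below 0.

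Grouped by function, 1 small family of 19 had more rises than falls. The lists were written from gene symbols and cover 276 regions in 219 hosts. Of 8 regions in phosphodiesterase and adenylyl cyclase genes, which set the level of cyclic nucleotides, 5 were higher and 2 lower in the authors' deposited table, with a median log2 fold of 0.60 against -0.54 for all tested regions. PDE4D rose by 1.00, ADCY5 by 0.71 and PDE8B by 0.61 beside both regions of ADCY1, while PDE4C fell by 0.88 and a region of PDE6A by 0.58. Only 3 of the 5 rises passed a false discovery rate of 0.01.

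Of 22 regions in myosin, kinesin and dynein genes 16 were lower (72.7%, against 58.4% of all tested regions) and 2 higher, with a median of -0.61 in the authors' deposited table. They included KIFC3, a minus-end kinesin gene (-1.12), and the axonemal dynein genes DNAH6 (-1.06), DNAH14 (-1.01) and DNAH12 (3 of 3 lower, -0.90 to -0.83), while DNAH2 (0.74) and DNAH9 (0.65) each had a region that rose. Of the 16, 10 lie off chromosomes 2, 14, 16, 17 and 20, which HepG2 carries in extra copies. MYO3B and DNAH12 alone held 4 and 3 of the 16.

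The remaining families are small, and their counts are to be read against 58.4% lower and 3.82% higher among all tested regions. Ion channel genes held 24 regions, of which 14 were lower and 1 higher, and neurotransmitter receptor genes 8, of which 5 were lower and none higher, led by GABRR2 (-1.04), GABRG3 (-1.03) and GRIN1 (-0.91) in the authors' deposited table. Integrin, laminin and collagen genes had 10 lower and 0 higher of 17, with COL5A1 at -0.89, COL28A1 at -0.77 and COL4A2 at -0.70. Cadherin genes had 3 lower and 0 higher of 6, among them CDH1, the epithelial cadherin, at -0.89. Axon guidance genes had 6 lower and 1 higher of 12, and neuronal adhesion genes 6 lower and 0 higher of 15.

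Transporters, regulators and enzymes are given in the same way. Solute carrier and ABC transporter genes had 18 lower and 2 higher of 37, GTPase regulator genes 11 and 2 of 19, signalling kinase genes 8 and 2 of 17, and transcription factor genes outside the nuclear receptors 27 and 2 of 54. Nuclear receptor genes and their cofactors had 4 lower and 1 higher of 8; PPARGC1A, a coactivator of liver gluconeogenesis, was at -0.90 and RARB, a retinoic acid receptor gene, at -0.76. Lipid and bile acid genes had 6 lower and 3 higher of 12, the rises being in OSBPL10, OSBPL1A (0.59) and ACOXL (0.43). Cytochrome P450 and phase II genes had 2 lower of 6, CYP4F22 (-0.65) and CYP2B6 (-0.56), and receptor tyrosine kinase genes 2 of 5, with ERBB4 at -1.13. No family was tested as a set, and several regions of a family can share a gene.

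**Figure D5:**
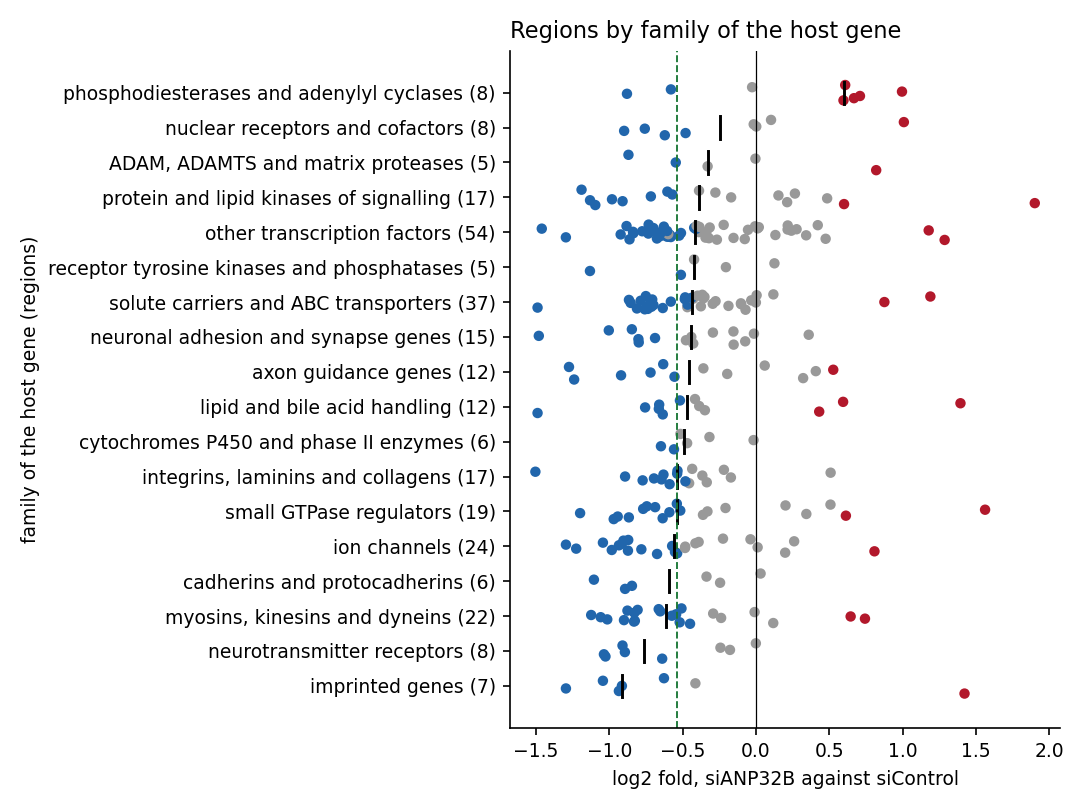
Log2 fold in the authors' deposited table (horizontal axis) of each region by gene family (rows), with black ticks at the family medians and a dashed line at the median of all tested regions (-0.54). The median of the phosphodiesterase and adenylyl cyclase regions lies at 0.60 and that of the motor protein regions at -0.61.

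The 5 widest regions inside genes were all lower. Among the regions of 40 kb or more inside genes, 58.8% were lower and 15.7% higher, against 58.4% and 3.82% of all tested regions. ELMO1, which with DOCK proteins activates Rac, held one of 182 kb at a log2 fold of -1.20 in the authors' deposited table, where 77 of 138 windows were down and 4 up. ME3, mitochondrial malic enzyme, held one of 144 kb at -0.96, which takes 60.6% of the gene. By chromosome, the lower share ran from 36.7% of 30 regions on chromosome 8, where 57.3% of all tested regions were lower, to 67.9% of 28 on chromosome 19, where 69.3% were. At the edge of the rule, 23 regions ended less than 1 kb from an end of their host, with a median fold of -0.48, and 37 regions left out of the set were at least 90% inside a coding gene, with a median of -0.49.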

How the data were processed

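The authors used, per the submitters' processing notes, hg38, SICER, Bowtie2, Trim Galore, deepTools, SAMtools and edgeR. The sources used here give no versions, settings or scaling between libraries. For the 4 anti-macroH2A1 libraries the authors deposited domains on a 1 kb grid with a score each, used here only as a filter. Their deposited comparison table lists, per the file headers, the p-value of each region, its false discovery rate and numbers of windows, which are no read counts. The fold deposited by the authors was read as log2, as edgeR writes it. There were 0 unused columns with values per sample.

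The sign of the fold was read from regions outside the set. For 336 with a fold above 0, mean domain coverage was 86.3% and 80.2% (siControl) against 93.1% and 94.3% (siANP32B). For 3283 with a fold below 0 the difference was smaller: 93.5% and 90.8% (siControl) against 89.3% and 90.3% (siANP32B). Genes came from RefSeq (GRCh38.p14); its promoter table gave strand for 560 of 690 hosts. Coverage was compared by exact permutation tests (SciPy 1.17.1, numpy 2.4.6, pandas 2.3.3). Overlap and host assignment were tested on 1000 simulated regions, with 0 errors.

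Named genes are those of the 15 lower and the 15 higher regions with smallest p, the 5 hosts with most regions, the 5 widest regions, the 5 longest and 5 shortest hosts, the 5 largest falls and rises in coverage among regions whose libraries do not overlap, hosts with both directions, and up to 4 regions per family. Outside this rule, EML1, PDE8B, PDE6A, DNAH2, DNAH9, OSBPL1A, ACOXL, the miRNA hosts and further regions of named hosts were chosen after their values were seen. Regions and gene lists were chosen with earlier results of these data known, and the family patterns were corrected after values were seen (TBXAS1 is no transcription factor, APOLD1 no lipid gene).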

Additional observations from a re-analysis of the deposited data

How the results depend on the processing

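Counts of lower and higher regions over the whole set stayed within 1.5 times of the values given: at a false discovery rate of 0.01, 324 were lower and 41 higher. Of the 76 named regions past 0.05, 66 also passed 0.01. With folds centred on the median of all tested regions, folds below 0 went from 706 to 368 and those above 0 from 149 to 487, so the sign of a single small fold depends on how libraries were scaled. Rises in phosphodiesterase and adenylyl cyclase regions numbered 3 at a false discovery rate of 0.01, and lower motor protein regions 10 without the chromosomes HepG2 has gained. The difference between groups in the share of regions covered to at least 50% was 0.351 points, and -0.292 when any overlap counted. With domains above 1 common score it was -27.5 points, mean coverage differed by -26.3 and that of regions that did not pass by -15.6; the cause was not tested. Leaving out 1 library at a time gave -0.936 to 1.64 for the share and -0.239 to 2.73 for mean coverage, negative without siControl replicate 2, and for the share also without siANP32B replicate 2. In the same runs host gene coverage differed by 3.58 to 7.56 points. It was not computed with 1 common score or an equal number of domains, so its dependence on the score is not known. With the replicate number as a block the share differed by 0.351, mean coverage by 1.25 (within replicates -1.04 and 3.53) and host coverage by 5.57 points (3.22 and 7.92); same-numbered libraries did not deviate together (correlation -0.0358). With 2 libraries per group no coverage difference can pass 0.05 with or without the block, so it could change no call. Depth limits what a domain list can hold, and it is unknown here.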
